A study of Mus musculus with 8 samples.

Results

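Oxidative phosphorylation subunits are described here: the rows of the deposited table whose gene name starts with Nduf, Uqcr, Cox4 to Cox8 or Atp5, leaving out pseudogene names. The rule took 80 of the 11996 rows, and all 80 had a mean above the filter on low signal that 11400 rows passed. The RNA came from macrophages that thioglycolate had drawn into the peritoneum of C57BL/6 mice, kept on plastic for 24 h. The 4 groups were wild-type cells with mock treatment, wild-type cells with IL-10 at 100 ng/ml for 4 h, Ptpn1-/- cells with mock treatment and Ptpn1-/- cells with the same IL-10 dose and time. Each group had 2 samples in the labels, which do not say whether they came from separate mice, and the sources used here do not say how the Ptpn1 allele was made. The table gives 1 authors' value per gene and group, and it has no replicate spread to compare a difference with, so nothing below was tested. Sequencing depth is unknown, and the values are called units of signal.

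The name rule is wider than the label. Of the 80 rows, 72 are subunits of complex I, III, IV or V. The other rows are 4 complex I assembly factors (Ndufaf1 to Ndufaf4), the supercomplex factor gene Cox7a2l, Cox4nb, which belongs to a membrane complex of the endoplasmic reticulum, and Atp5s and Atp5sl, which are not established subunits of ATP synthase. A search for names starting with mt- found no row, so subunits encoded by mitochondrial DNA could not be analysed here.

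Complexes I, III and IV of the inner mitochondrial membrane pass electrons from NADH and ubiquinol to oxygen and pump protons, and complex V, the ATP synthase, uses the proton gradient to make ATP. Nuclear genes encode most subunits, and mitochondrial DNA encodes the hydrophobic cores of these complexes. In macrophages respiration is high in alternatively activated and resting states and is cut back after inflammatory activation, and IL-10 is known to help inflammatory macrophages keep it.

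The libraries carried macrophage transcripts, with 8 of 9 fixed macrophage markers listed. Their summed signal was 645695.5 units in wild-type mock, 553540 in wild-type IL-10, 460680 in knockout mock and 460756.5 in knockout IL-10. Single markers went different ways. In the same order the lysozyme gene Lyz2, which led the fall of the sum, stood at 362618, 272813, 136851.5 and 136851.5 units. Its wild-type mock value is the column's maximum, which 8 rows shared. Cd68 was higher in the knockout, at 226524, 226524, 272612 and 272612 units. The Fc receptor gene Fcgr1 stood at 1453, 2547, 2531.5 and 3888, and Emr1 between 10088.5 and 11367. Summed mesothelial and fibroblast markers were lower in the knockout, at 10961.5, 10935, 6101.5 and 6513.5 units. Of these, Msln did not differ by genotype, at 41.5, 31, 41 and 31 units. Summed neutrophil markers were higher in the knockout, at 91, 85.5, 181 and 202 units, as were summed mast cell markers, at 290, 317.5, 438.5 and 491.5. Most of the neutrophil difference lay in Retnlg, at 29.5, 26.5, 109.5 and 121.5 units. S100a8 stood at 53, 52, 56.5 and 64. The 1 listed T cell marker, Lck, was higher in both IL-10 columns, at 11.5, 105, 10 and 128 units, and B cell markers stood between 110 and 149. These values differ along the genotype and IL-10 comparisons made below. The part of these cells in the results below was not tested. In bulk RNA fewer cells of a type and less RNA per cell cannot be told apart. Ptpn1, the targeted gene, was listed at 4960.5 units in wild-type mock, 6736 in wild-type IL-10, 3836.5 in knockout mock and 5391.5 in knockout IL-10. Its signal was lower in the knockout columns but not absent, and the sources used here do not say which part was deleted.

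Many respiratory subunit genes share promoter elements, above all sites for the factors NRF1 and GABP, an ETS protein. RefSeq promoter windows (GRCm38.p6; 250 bases before to 50 after a start, 300 in all) were matched for 65 of the 80 members, with 70 windows. The NRF1 consensus was found on either strand in 17 of 70 member windows (24.3%), in 16 genes, against 9.74% of 10988 windows of the other genes in the table. For the ETS letters CCGGAAG the shares were 21.4% and 17.1%, and for the YY1 letters AAGATGG 14.3% and 6.88%. The SP1 letters GGGCGG stood in 40% of member windows and 62.7% of the others, the CRE letters TGACGTCA in 5.71% and 2.95%, and TATAAA on the gene's strand in 2.86% and 4.28%. NRF1 and YY1 letters were thus more frequent in the member windows and SP1 letters less frequent, which describes letters and not binding. The motifs searched can overlap one another.

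The 250 bases before the start are printed for 4 members, with NRF1, ETS, YY1, CRE and SP1 letters in capitals: Cox6a1 and Atp5k because they hold NRF1 letters, and Atp5l and Uqcr11 because their IL-10 responses differed most between the genotypes, downward and upward.
Cox6a1, chr5:115348959-115349208, minus strand: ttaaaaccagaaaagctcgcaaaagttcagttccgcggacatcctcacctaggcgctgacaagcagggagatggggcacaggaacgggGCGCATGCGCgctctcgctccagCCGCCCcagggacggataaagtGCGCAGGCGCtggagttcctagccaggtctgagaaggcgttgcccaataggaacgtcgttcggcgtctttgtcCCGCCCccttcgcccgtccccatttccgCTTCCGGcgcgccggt
Atp5k, chr5:108434400-108434649, minus strand: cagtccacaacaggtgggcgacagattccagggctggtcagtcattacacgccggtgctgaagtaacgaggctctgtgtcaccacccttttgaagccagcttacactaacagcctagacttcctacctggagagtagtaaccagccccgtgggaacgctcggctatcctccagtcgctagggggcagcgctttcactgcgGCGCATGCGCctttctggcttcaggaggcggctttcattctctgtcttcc
Atp5l, chr9:44920743-44920992, minus strand: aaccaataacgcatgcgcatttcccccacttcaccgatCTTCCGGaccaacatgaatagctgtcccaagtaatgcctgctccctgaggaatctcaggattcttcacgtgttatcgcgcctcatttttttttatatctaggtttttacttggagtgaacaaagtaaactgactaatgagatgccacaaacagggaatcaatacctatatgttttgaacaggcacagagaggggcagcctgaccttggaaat
Uqcr11, chr10:80406822-80407071, minus strand: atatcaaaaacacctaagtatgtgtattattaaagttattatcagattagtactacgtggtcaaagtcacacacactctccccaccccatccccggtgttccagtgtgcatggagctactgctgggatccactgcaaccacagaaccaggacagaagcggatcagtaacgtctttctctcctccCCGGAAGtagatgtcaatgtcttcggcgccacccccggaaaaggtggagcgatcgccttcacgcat
In Cox6a1 the NRF1 letters start 162 and 117 bases before the start, the SP1 letters 139 and 44 bases before it, and the ETS letters 16 bases before it. In Atp5k the NRF1 letters start 50 bases before the start, and its 300-base window also holds ETS letters that are not within the printed 250 bases. Atp5l and Uqcr11 each hold 1 ETS match, 212 and 66 bases before the start, and neither holds the exact NRF1 letters in the printed stretch. No match says only that these letters are not in the printed stretch.

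Members also stood close to other genes. In the table's mm9 coordinates 15 of 80 members (18.8%) had a head-to-head neighbour on the opposite strand with starts at most 1000 bases apart, against 8.13% of all 11996 rows. In 1 such pair both genes are members: Cox4i1 (mm9 chr8:123192190-123198109, plus strand) starts 178 bases from Cox4nb (mm9 chr8:123177814-123192012, minus strand). Other neighbours were Ndufs1 with the translation factor gene Eef1b2, 3 bases apart, and Ndufb9 with Tatdn1, 83 bases apart. The rows of 7 members overlapped the row of another gene: Ndufa2 with Tmco6, Ndufb2 with Braf, Ndufb6 with 2010003O02Rik, Ndufa13 with Tssk6, Cox6c with Vps13b, Atp5b with Baz2a and Atp5j with Gabpa. Whether the counting used strand is not stated, so these signals are less certain.

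Levels between genes were compared per kb of transcript, as the mean over the 4 columns. Members were abundant: their median was 2207.8 units per kb against 246.2 for all genes kept, and 72 of 80 lay above that median. The ATP synthase catalytic subunit gene Atp5b (mm9 chr10:127525547-127526737) had the highest level, 14319 units per kb, followed by Cox4i1 at 9903, Atp5g2 at 9108, Cox6b1 at 9030 and Cox6a1 at 8145. By role, the median was 4593 units per kb for the F1 part of complex V, 3802 for complex IV, 3746 for complex III, 3285 for the Fo part and stalk of complex V, 1935 for complex I accessory subunits and 1573 for the complex I core. The complex I core spanned 538 (Ndufs1, an iron-sulfur subunit) to 2107 (Ndufv2), so genes of 1 complex did not share 1 level. The 4 assembly factors had a median of 193 units per kb, below that of all genes.

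**Figure D1:**
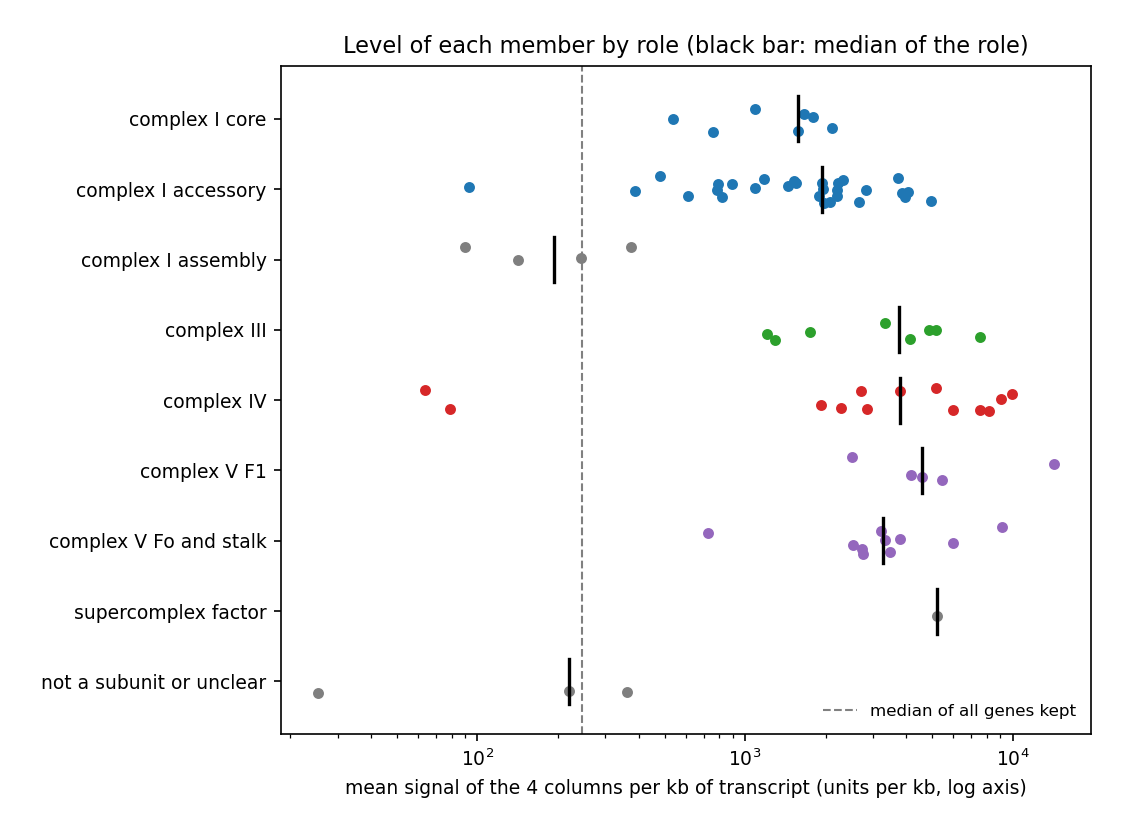
Mean signal of the 4 columns per kb of transcript (log axis) for each of the 80 members, by role, with 1 point per gene, the black bar at the role's median and the dashed line at 246.2, the median of all genes kept. The bars of complexes III, IV and V stand between 3285 and 4593 units per kb, those of complex I at 1573 and 1935, and the bar of the assembly factors at 193, below the dashed line.

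Isoform families were led by the general form. Cox6a1, the general form of subunit 6A of cytochrome oxidase, had signals of 4425, 4565.5, 4797 and 4815 in wild-type mock, wild-type IL-10, knockout mock and knockout IL-10, and the muscle form Cox6a2 at 39.5, 52, 52 and 71.5 units in the same order. The muscle form Cox7a1 stood at 18.5, 21.5, 34 and 38 units, against 1063, 1306.5, 1294 and 1391 for Cox7a2. Both muscle forms were near the pseudocount of 26.7 units, so their log2 ratios are understated. The genes Atp5g1, Atp5g2 and Atp5g3 encode the same mature c subunit of the ATP synthase rotor with different import sequences, and their levels per kb were 725, 9108 and 2753. Atp5g2 led this family in each column, with 5211, 5202.5, 5713.5 and 5223 units. Cox7a1 was the lowest of the 80 members in mean signal, and Atp5s, at 30 to 44 units, the lowest per kb. Several levels per kb rest on annotation with long transcripts: the median length was 2413 nt for Ndufb2, 2447.5 nt for Ndufab1 and 2675.5 nt for Atp5g1.

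Summed over the 80 rows, members held 0.691% of the total signal in wild-type mock, 0.714% in wild-type IL-10, 0.773% in knockout mock and 0.743% in knockout IL-10. Atp5b alone lies above 20000 units, where neighbouring ranks are far apart, and without it the shares were 0.585%, 0.62%, 0.664% and 0.641%. Wild-type mock was the lowest of the 4 columns in 55 of 80 members, against 34.6% of all genes kept, wild-type IL-10 in 11, against 17.1%, knockout mock in 4, against 17.1%, and knockout IL-10 in 9, against 29.8%. The highest value lay in knockout mock in 40 members and in knockout IL-10 in 34, against 25.2% and 29.1% of all genes. It lay in wild-type mock in 3 and in wild-type IL-10 in 3, against 31.1% and 13.2%. Members thus mostly had wild-type mock lowest and a knockout column highest.

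**Figure D2:**
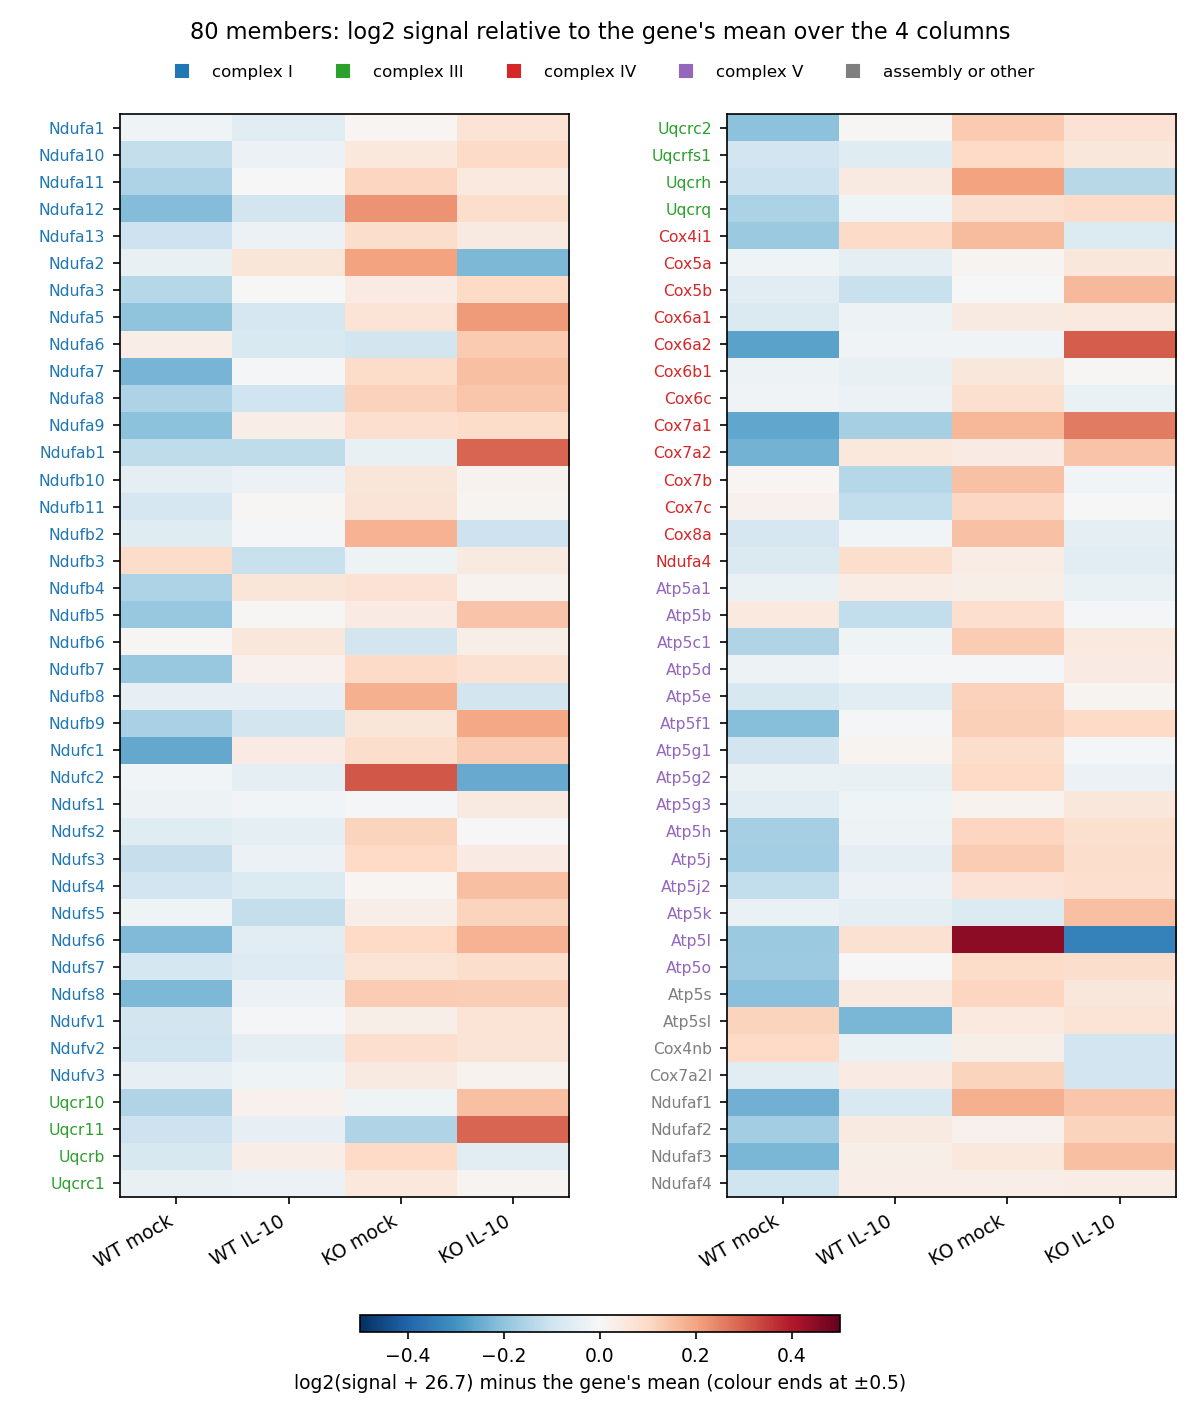
Each row is 1 of the 80 members and each column 1 of the 4 groups; colour is log2(signal + 26.7) minus the gene's own mean over the 4 columns, and name colour gives the complex. The wild-type mock column is mostly blue, as wild-type mock was lowest in 55 of 80 members, and Atp5l, Ndufc2 and Ndufa2 switch from red in knockout mock to blue in knockout IL-10.

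This order has to be read beside transcript length. Member transcripts are short, with a median of 746 nt against 2740 nt for other genes, and 60 of the 80 lie in the 6 shortest of 40 length bins, at up to 1372 nt. Across 11222 genes the log2 ratio fell with length in 4 comparisons (Spearman's rho -0.55 for knockout against wild type under mock, -0.42 with IL-10, -0.36 for IL-10 in wild type and -0.13 for IL-10 in the knockout). Genes share their libraries and are not independent, so no p is given. In those 6 bins the 1624 genes that are not members had medians of 0.17, 0.10, 0.072 and 0.0056 in the same order. Beside the 2-fold limit a smaller one is used, a log2 ratio of 0.322. Among the 80 members themselves rho with length was -0.010, -0.083, -0.040 and -0.15 in that order. For the member medians and counts, and for the roles, the value with the median of the other genes in the same length bin subtracted is therefore given beside the plain one. Ratios of single genes are plain unless stated.

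**Figure D3:**
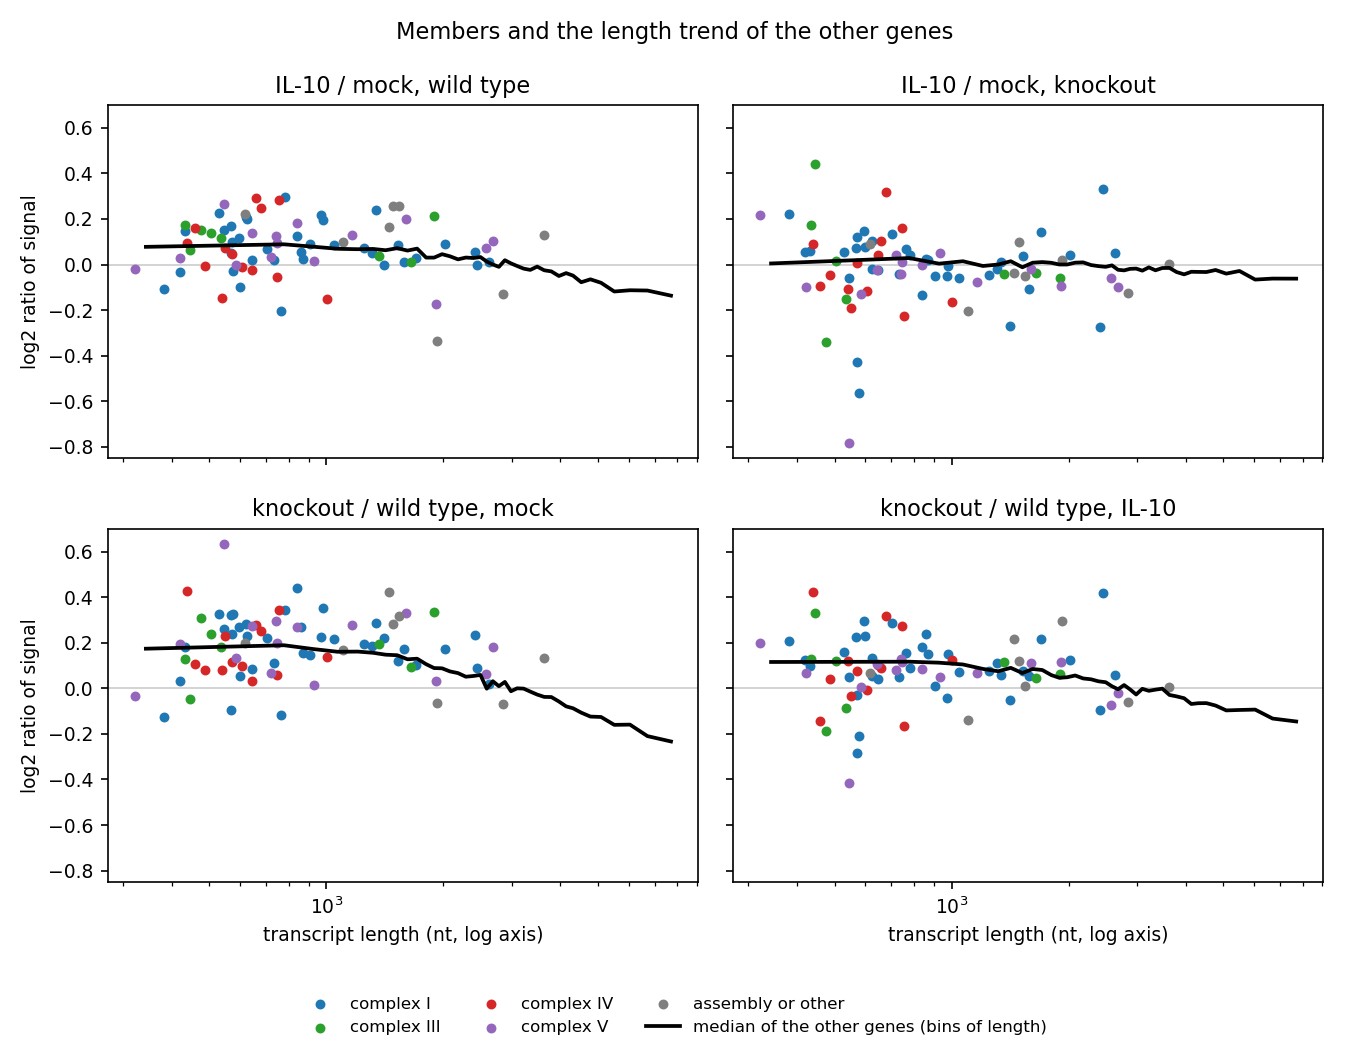
The log2 ratio of signal (vertical) against transcript length in nt (log axis) for the 80 members, coloured by complex, in 4 comparisons; the black line is the median of the other genes in bins of length, without the last bin. The short members lie around the black line. It stands near 0.17 for short transcripts in knockout against wild type under mock and near 0 for IL-10 in the knockout. Under mock, where the line falls with length, longer members lie on both sides of it. The longest subunit transcripts are all above it: Ndufb2 (0.24), Atp5g1 (0.18), Ndufa10 (0.17), Ndufab1 (0.088), Atp5a1 (0.062) and Ndufs1 (0.021). Below it are the somewhat shorter subunits Uqcrc1 (0.093) and Atp5b (0.033), and Atp5sl (-0.063) and Cox4nb (-0.068), which are not established subunits.

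Under mock treatment the members were slightly higher in knockout than in wild-type cells, by about as much as other short transcripts. Their median log2 ratio was 0.19, against 0.02 for all genes kept, and 0.035 with the length bin's median subtracted. Of 80 members 73 were above 0, against 53.5% of all genes, and with length subtracted 51 were, against 50%. Past the smaller limit and higher were 11 members, against 6.92% of all genes, and 1 with length subtracted, against 4.52%. No member reached 2-fold (0.325% of all genes were 2-fold higher and 0.105% lower), and none was lower past the smaller limit, against 7.35%, or 5.56% of all genes with length subtracted.

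By role, all 7 complex I core genes were above 0, against 53.5% of all genes, with a median of 0.17 (0.028 with length subtracted). Of 29 accessory subunits 26 were above 0, with a median of 0.22 (0.057). Complex III had 7 of 8 above 0 and a median of 0.19 (0.023), and complex IV 13 of 13 and 0.12 (-0.058). The F1 genes had 5 of 5 and 0.062 (0.019), and the Fo and stalk genes 9 of 10 and 0.23 (0.090). The 4 assembly factors had a median of 0.24 (0.15), all above 0 in both forms. Medians of the subunit roles with length subtracted lay between -0.058 and 0.090, on both sides of 0.

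Single members differed more. Atp5l, subunit g of the membrane part of the ATP synthase (mm9 chr9:44721333-44728825), was listed at 2803 units in wild-type mock and 4359 in knockout mock, a log2 ratio of 0.63. Ndufa12, a complex I accessory subunit, stood at 1409 and 1924 units (0.44), and the assembly factor gene Ndufaf1 at 168 and 234 (0.42). The others past the smaller limit were Cox7a1, Ndufs8, Ndufc1, Cox4i1, Uqcrc2, Atp5f1, Ndufa7 and Ndufc2. Atp5l alone stayed past it with length subtracted, at 0.46. The lowest ratios were those of Ndufa6, at 1580 and 1446.5 units (-0.13), Ndufb3, at 645.5 and 594 (-0.11), and Ndufb6, at 275 and 255.5 (-0.096).

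With IL-10 the genotypes differed less in these genes than under mock, as they did in the other short transcripts (0.10 against 0.17). The median log2 ratio of knockout against wild type was 0.082, against 0.0075 for all genes, and -0.013 with length subtracted. Of 80 members 63 were above 0, against 51.8% of all genes, and 37 with length subtracted, against 49.9%. Past the smaller limit 3 members were higher (5.57% of all genes), Cox7a1, Ndufab1 and Uqcr11, and 1 was lower (5.61%), Atp5l. With length subtracted 1 was higher (4.91%) and 3 were lower (4.86%). None was 2-fold higher or lower, against 0.596% and 0.0789% of all genes. Ndufab1, the mitochondrial acyl carrier protein that is also part of complex I, had 1363 units in wild-type IL-10 and 1830.5 in knockout IL-10 (0.42). Uqcr11, a small subunit of complex III, stood at 3235 and 4076.5 units (0.33), and the accessory subunit Ndufa5 at 609 and 754 (0.30). Atp5l was at 3370 and 2522 units (-0.41), the reverse of its mock order. Ndufa2 stood at 1233.5 and 1007.5 units (-0.29) and Ndufc2 at 1468.5 and 1267 (-0.21).

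IL-10 in wild-type cells went with a small upward median. The members' median log2 ratio of IL-10 against mock was 0.086, against 0.00 for all genes, and 0.014 with length subtracted. Above 0 were 62 of 80 members, against 49.6% of all genes, and 44 with length subtracted, against 49.9%. No member was higher past the smaller limit (4.65% of all genes, 4.46% with length subtracted), 1 was lower (4.24%, 3.35% with length subtracted), and none reached 2-fold (0.465% of all genes higher and 0.0175% lower). The 1 lower was Atp5sl, whose signal was 455.5 units under mock and 355 after IL-10 (-0.34). Ndufb3 stood at 645.5 and 557.5 units (-0.20) and Atp5b at 28358.5 and 25142.5 (-0.17). The highest ratios were those of the accessory subunit Ndufc1, at 506 and 627 units (0.30), Cox7a2, at 1063 and 1306.5 (0.29), and Cox4i1, subunit 4 of cytochrome oxidase, at 6546 and 7964 (0.28). By role, all 8 complex III genes were above 0, with a median of 0.13, and 5 of 8 with length subtracted (0.049). The complex I core had 7 of 7 above 0 and a median of 0.052, and 3 of 7 with length subtracted (-0.0002). Accessory subunits had 22 of 29 above 0 and 0.073 (0.011), complex IV 7 of 13 and 0.045 (-0.033), the F1 genes 4 of 5 and 0.026 (-0.051), and the Fo and stalk genes 8 of 10 and 0.11 (0.049). With length subtracted 16 of 29 accessory subunits, 5 of 13 complex IV, 2 of 5 F1 and 7 of 10 Fo and stalk genes were above 0. All 4 assembly factors were above 0 in both forms, with 0.19 (0.15).

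IL-10 in knockout cells went with no common direction. The median was -0.020, against -0.015 for all genes, and -0.026 with length subtracted. Above 0 were 37 of 80 members (46.2%), against 45.2% of all genes, and 35 with length subtracted, against 49.8%. Past the smaller limit 2 members were higher (5.95% of all genes) and 4 lower (4.46%), and none reached 2-fold (0.877% and 0.0175%). With length subtracted 2 were again higher (6.24%) and 4 lower (3.86%). The lower members were Atp5l, whose signal was 4359 units under mock and 2522 after IL-10 (-0.78), Ndufc2, at 1888 and 1267 (-0.57), Ndufa2, at 1364.5 and 1007.5 (-0.43), and Uqcrh, the hinge protein of complex III, at 2256.5 and 1775.5 (-0.34). The higher members were Uqcr11, at 2996 and 4076.5 units (0.44), and Ndufab1, at 1450 and 1830.5 (0.33). Ndufa6, an accessory subunit that binds the acyl carrier protein, stood at 1446.5 and 1693 units (0.22). These values lie on both sides of 0 within complex I and within complex III.

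**Figure D4:**
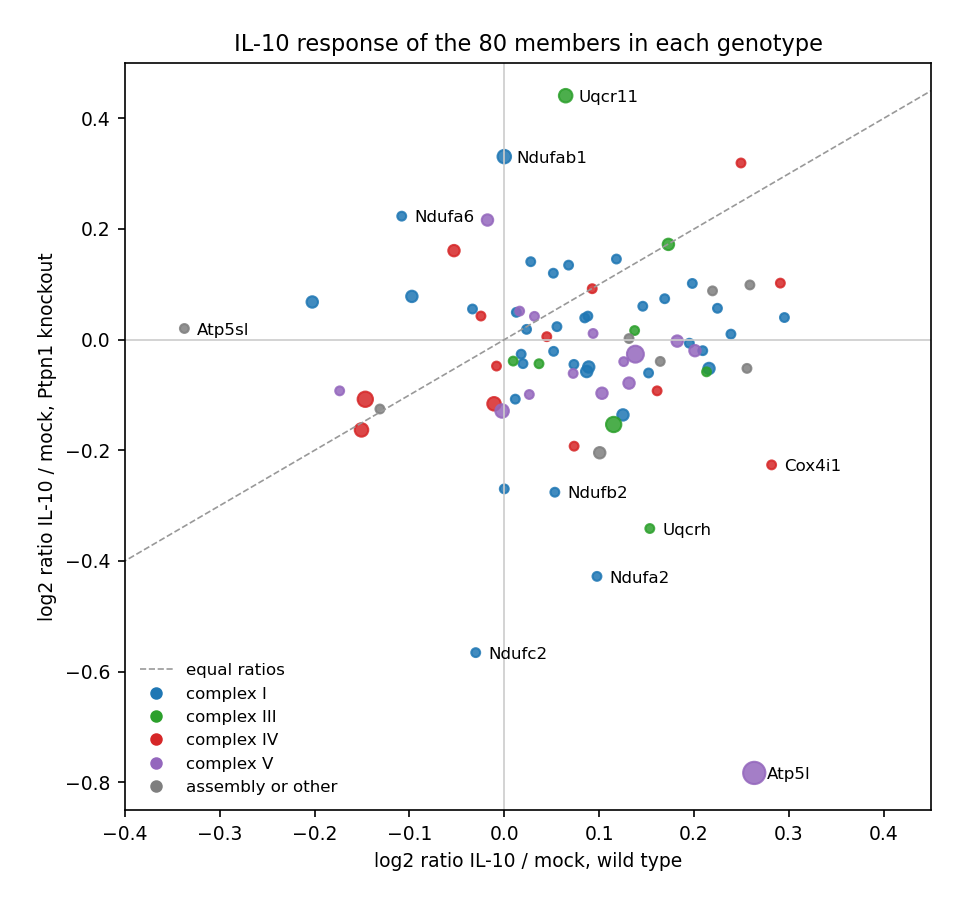
Log2 ratio of IL-10 against mock in wild type (horizontal) and in the Ptpn1 knockout (vertical) for the 80 members, coloured by complex, with point area growing with the number of near-identical annotated copies; members whose ratios differ by more than 0.32 are named. Most points lie to the right of 0 and around 0 in height, with Atp5l at 0.26 and -0.78 and Uqcr11 at 0.065 and 0.44.

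Subtracting the wild-type IL-10 log2 ratio from that of the knockout gives, per gene, a difference between responses. Its median over the members was -0.11, against -0.0043 for all genes, and -0.059 with length subtracted. Below 0 were 59 of 80 members (51.2% of all genes), and 49 with length subtracted (50%). Past the smaller limit 6 members were lower, or 7.5%, against 2.96% of all genes: Atp5l (-1.05), Ndufc2 (-0.54), Ndufa2 (-0.53), Cox4i1 (-0.51), Uqcrh (-0.49) and Ndufb2 (-0.33). Higher past it were 4, or 5.0%, against 3.59%: Uqcr11 (0.38), Atp5sl (0.36), Ndufa6 (0.33) and Ndufab1 (0.33). With length subtracted 5 were lower (2.31% of all genes) and 5 higher (3.67%). Atp5l alone was past 2-fold, against 0.0351% of all genes 2-fold lower and 0.0965% higher. With length subtracted it stood at -1.0, and with length and signal level subtracted at -0.96, short of 2-fold.

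The signals in the 4 columns lie behind these differences. The signals of Atp5l were 2803, 3370, 4359 and 2522 in wild-type mock, wild-type IL-10, knockout mock and knockout IL-10. It was thus highest in knockout mock and lowest in knockout IL-10. Ndufc2, an accessory subunit of the complex I membrane arm, had the same extremes, at 1500, 1468.5, 1888 and 1267 units. Ndufa2, also accessory, stood at 1151, 1233.5, 1364.5 and 1007.5 units, and Uqcrh at 1818, 2025, 2256.5 and 1775.5. In both the knockout IL-10 column was again the lowest and knockout mock the highest. Cox4i1 was at 6546, 7964, 8302.5 and 7093.5 units, with the lowest value in wild-type mock. Its head-to-head neighbour Cox4nb stood at 1101.5, 1003.5, 1049.5 and 960 units, with both IL-10 log2 ratios at -0.13. Uqcr11, Ndufab1 and Ndufa6 had their highest value in knockout IL-10 instead. Uqcr11 was at 3092, 3235, 2996 and 4076.5 units, Ndufab1 at 1363, 1363, 1450 and 1830.5, and Ndufa6 at 1580, 1464, 1446.5 and 1693.

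**Figure D5:**
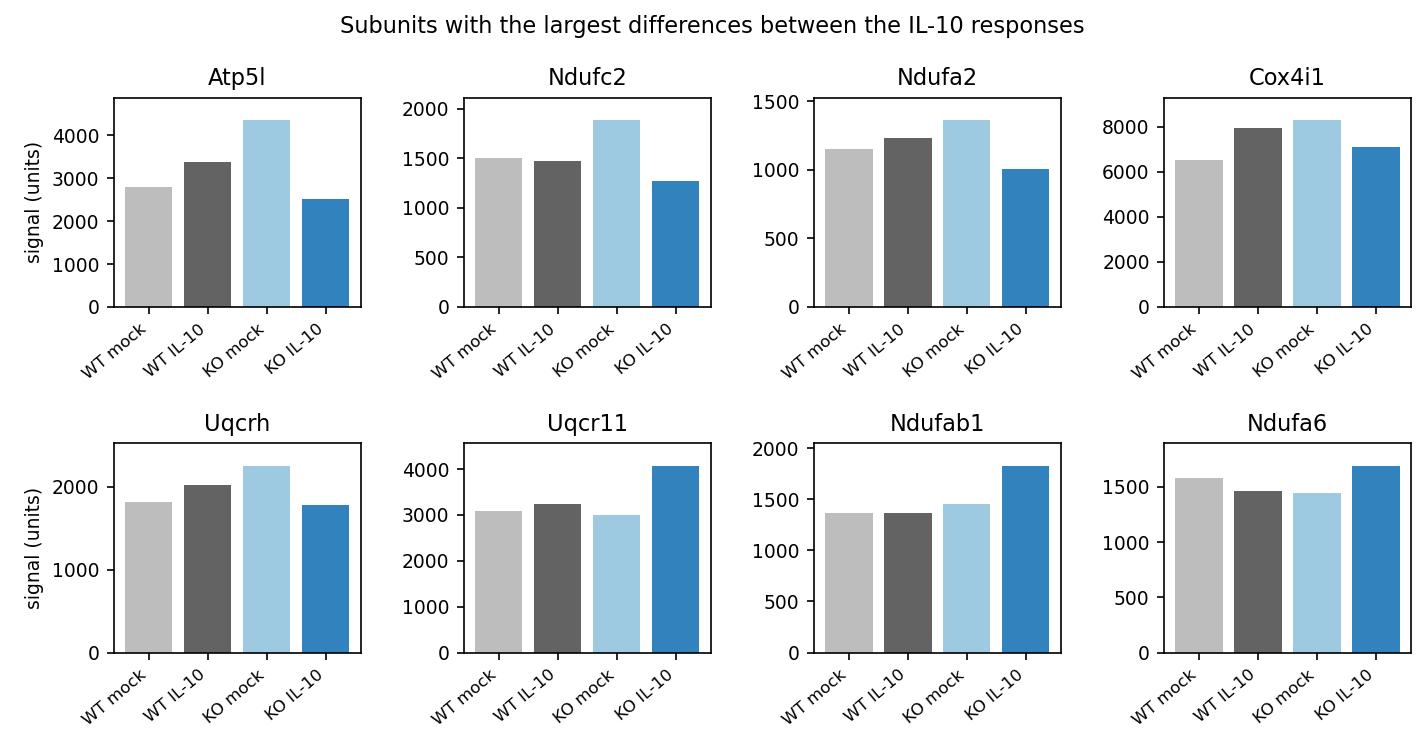
Signal in units (bars from 0, 1 scale per gene) in the 4 columns for the subunits with the largest differences between the IL-10 responses. Atp5l, Ndufc2, Ndufa2, Cox4i1 and Uqcrh are highest in knockout mock, and Uqcr11, Ndufab1 and Ndufa6 are highest in knockout IL-10.

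Short, abundant transcripts of this kind have left many processed copies in the mouse genome, and reads can be split between a gene and its copies. In GENCODE M21, 23 of 80 members had another annotated gene matching at least 50% of the coding sequence at 95% identity or more. Atp5l had the most, with 8, followed by Atp5h with 4 and Cox7c and Uqcrb with 3. Uqcr11 and Ndufab1 had 2 each. Ndufc2, Ndufa2, Cox4i1, Uqcrh and Ndufa6 had none at these limits. The difference between the IL-10 responses had a median of -0.14 and a range of -1.05 to 0.38 in the 23 members with a copy, and a median of -0.095 and a range of -0.54 to 0.36 in the 57 without. The sources used here do not say how reads that fit several places were counted, and the part of copies in these differences was not tested.

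Other members carried values near those of the whole set. Ndufa13, also known as GRIM-19 and reported to bind STAT3, the factor through which IL-10 acts, had signals of 1764.5, 1858, 2020 and 1957.5 in wild-type mock, wild-type IL-10, knockout mock and knockout IL-10. Its IL-10 log2 ratios were 0.073 and -0.045. The NADH-binding subunit Ndufv1 stood at 1088.5, 1156, 1186.5 and 1220 units, and the Rieske iron-sulfur protein gene Uqcrfs1 at 1531, 1571, 1756 and 1703. Wild-type mock was the lowest column in all 3 of these genes, and none of their comparisons passed the smaller limit.

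Genes of the pathway outside the name rule mostly stood within the same narrow range. All 6 genes of the complex II list, succinate dehydrogenase and its assembly factors, were above 0 in knockout against wild type under mock, against 53.5% of all genes, with a median of 0.19 (0.11 with length subtracted). Past the smaller limit was 1, against 6.92%: Sdhaf2, at 939 and 1219 units (0.37, and 0.29 with length subtracted, short of the limit). All 6 had a lower IL-10 ratio in the knockout than in wild type, against 51.2% of all genes, with a median difference of -0.14 (-0.099 with length subtracted, where Sdhc stood at 0.036). Sdha, its catalytic subunit, stood at 7211.5, 6793.5, 7942.5 and 6466 units in wild-type mock, wild-type IL-10, knockout mock and knockout IL-10. The 5 genes of the electron carrier list had a median of 0.22 (0.095) under mock. Cytochrome c (Cycs), which carries electrons between complexes III and IV, was at 1892.5, 2004.5, 2212 and 2562.5 units, highest in knockout IL-10. The list of assembly factors outside the rule had 21 kept genes and also holds Atpif1, which encodes an inhibitor of the ATP synthase. In it 2 were higher past the smaller limit in knockout mock, against 6.92% of all genes, and none lower, against 7.35%. These were Atpif1 (0.34) and the assembly factor gene Atpaf2 (0.33), and both fell short of the limit with length subtracted (0.17 and 0.23). Cox17, a copper chaperone of complex IV, had the largest difference between the IL-10 responses in this list, 0.46 (0.49 with length subtracted).

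Of the 13 regulators of mitochondrial genes none was past 2-fold in any comparison, against at most 0.877% of all genes higher and 0.105% lower. Ppargc1a, the coactivator PGC-1 alpha, was low, at 32, 19, 35 and 22 units, near the pseudocount. It was the 1 regulator lower past the smaller limit with IL-10 in wild type (4.24% of all genes) and in the knockout (4.46%). With length subtracted it fell short of the limit, at -0.28 and -0.31. Tfb1m was the 1 regulator higher past it in knockout mock (6.92% of all genes), at 139 units against 97 in wild-type mock (0.42). With length subtracted it stood at 0.27, also short of the limit. Nrf1 stood at 683.5, 668.5, 706.5 and 724.5 units and Tfam, which packs and transcribes mitochondrial DNA, at 383, 412.5, 404 and 428.5. Of the citrate cycle list, 1 of 13 kept genes was past 2-fold: Irg1, whose enzyme makes itaconate, an inhibitor of succinate dehydrogenase, at 257.5, 447, 478 and 1114.5 units. Its log2 ratios were 0.74 for IL-10 in wild type and 1.18 for IL-10 in the knockout. For knockout against wild type they were 0.83 under mock and 1.27 with IL-10. With length subtracted these 4 values were 0.72, 1.18, 0.83 and 1.26. Of all genes 0.877% were 2-fold higher with IL-10 in the knockout, and 0.596% in knockout against wild type with IL-10.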

How the data were processed

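RNA sequencing of 8 samples in 4 groups of 2 was summarised by the submitters in 1 table. RSEM, Bowtie and mm9 are named, without roles, per the submitters' processing notes; the sources used here do not give normalization, annotation or averaging. The deposited signal is not CPM although the file is named so: each column totals 26705598 and all 4 share a maximum of 362618. Between 36.6% and 37.2% of a column's values end in 0.5. Equal totals remove depth and shifts common to most genes.

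Each comparison was a log2 ratio of group columns with a pseudocount of 1 ppm of the total (26.7 units), over 11400 genes with a mean of at least 1 ppm; a 2-fold and a smaller limit (0.322 in log2) replaced a test. Length was the median over a gene's basic coding transcripts in GENCODE M21 (GRCm38, names and lengths only), in 40 bins. Copies were searched with blastn 2.17.0; other steps used Python 3.11.15 with pandas 2.3.3 and were tested on simulated data. Named members were those past 2-fold, the 3 largest ratios in each direction with a mean of at least 5 ppm, extremes of level and isoform families, and up to 3 genes a list; others were named after their values were seen. Members and lists were chosen with earlier results of these data known. The 5 comparisons share columns.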

Additional observations from a re-analysis of the deposited data

How the results depend on the processing

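No paired analysis was possible because the table gives 1 value per group, so replicates were not left out either. With no replicate spread, a median counted as moved when it shifted by at least 0.05, a limit chosen for this purpose, and a count when it changed by more than 1.5 times. Of 265 alternative values of the main medians and counts, 223 stayed within these limits, 37 moved and 5 reversed. Of the alternative values of results not counted among the main ones, 116 stayed and 44 moved.

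Subtracting the length bin's median gave member medians of 0.014 for IL-10 in wild type, 0.035 for knockout against wild type under mock, -0.013 with IL-10 (reversed) and -0.059 for the difference between responses. With length and signal level subtracted these were 0.0013, 0.028, 0.0032 and -0.032, and with the longest transcript in the bins 0.011, 0.023, -0.010 (reversed) and -0.047. The median for IL-10 in the knockout reversed to 0.0087 with signal level subtracted, 0.0071 with GC content subtracted and 0.0054 without members that have copies; its distance from 0 was small throughout.

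Counts of members past the smaller limit in knockout against wild type under mock were 6 higher with a pseudocount of 4 ppm or GC subtracted, and 1 higher in each of the 3 length settings; 1 was lower with length and signal or the longest transcript. With IL-10 each length setting gave 1 higher, and 3 (length bins), 2 (length and signal) and 3 (longest transcript) lower; leaving out members with copies gave 1 higher and 0 lower, and leaving out Atp5l 0 lower. For IL-10 in wild type 2 were higher with 0.25 ppm, and 0 lower with 4 ppm or subunits only. For IL-10 in the knockout 1 was higher with 4 ppm and 0 without members that have copies. For the difference between responses 1 was higher with 4 ppm and 2 without members that have copies. No member was past 2-fold there (0) with length and signal subtracted, with the longest transcript, without members that have copies or without Atp5l. The length and level trends and fewer members are part of these settings' construction; other causes were not tested. Shares of all genes are given above for the plain and length-bin settings only. Under the other settings a count describes the members alone and cannot be set against all genes. The settings with the longest transcript, GC content, copies and Atp5l were chosen after seeing the data. Depth is unknown, and low rows such as Cox7a1 are limited by the pseudocount.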

Other observations

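Other gene groups with short transcripts were read in the same columns. Of 76 mitochondrial ribosome genes, 72 were above 0 in knockout against wild type under mock, against 53.5% of all genes, with a median log2 ratio of 0.19, or 0.082 with the length bin's median subtracted. Of 38 kept proteasome genes 36 were above 0, against the same 53.5%, with a median of 0.22, or 0.11. The 22 cytosolic ribosome genes found had single-digit names only, so they cover part of that family. They had a median of 0.13, or -0.037, and the 16 kept genes of the V-type proton pump of lysosomes 0.10, or -0.032. The oxidative phosphorylation rows, at 0.19 and 0.035, lay between these groups. For IL-10 in wild type the medians were 0.085 for the mitochondrial ribosome, 0.15 for the proteasome, 0.086 for the cytosolic ribosome and 0.021 for the proton pump. With length subtracted they were 0.039, 0.095, 0.014 and -0.032.

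Within the assembly factors of complex I all 4 genes were below 0 in the difference between the IL-10 responses, against 51.2% of all genes. Ndufaf1 to Ndufaf4 stood at -0.20 to -0.13, or -0.15 to -0.089 with length subtracted, where 5610 of 11222 genes were below 0. This sign was not particular to them, as 59 of all 80 members were below 0. So were 6 of 7 complex I core genes, 7 of 8 complex III genes and all 6 genes of the complex II list.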
